A study of Mus musculus with 6 samples.

Results

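This account covers 49 homeobox genes outside the Hox clusters that pattern the nervous system, chosen by symbol from a list of such genes, and all 49 were found among the 52550 genes of the deposited tables. They were measured by RNA-seq in 6 mouse medulloblastomas, malignant tumours of the cerebellum. Of these, 3 were labelled wild type for Eed and 3 Eed mutant. Strain, age, the mutant allele, the cells that carry it and the way the tumours were induced are not named in the labels. Nor do these say that each tumour was from its own animal, and the p-values then reflect only how these samples spread, which may be technical.

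Homeobox genes encode transcription factors that bind DNA through a homeodomain. In the embryonic neural tube, sets of them are switched on in stripes by signals such as Sonic hedgehog from the ventral side and BMP and WNT from the dorsal side, and cross-repression sharpens the stripes into progenitor domains. Other members mark regions along the head-to-tail axis or fix the identity of neuron classes. Many are held silent outside their domain by Polycomb repressive complex 2 (PRC2), of which Eed is a core subunit that reads and propagates methylation of histone H3 at lysine 27.

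The libraries held 26186236 to 26425111 estimated counts. The first principal component (35.1% of the variance) separated the groups, with wild-type replicate 2 at its end (-49.2, against -26.1 and -9.36 in the other wild-type libraries and 18.5 to 38.4 in the mutants). Eed RNA was at 30.1 to 43.8 CPM in wild type and 30.7 to 36.8 CPM in the mutants, which checks nothing without the allele (CPM is the count scaled to library depth with TMM normalization factors). Wild-type replicate 3 and mutant replicates 1 and 2 had Xist at 1859 to 1988 CPM and the others at most 1.32 CPM, so both groups held both sexes by expression. The cerebellar granule lineage was present in every library, with Zic1 at 1435 to 1832 CPM in wild type and 1211 to 1536 CPM in the mutants. Atoh1 was at 75.3 to 127 and 137 to 172 CPM, without overlap, but did not pass DESeq2 (adjusted p = 0.0517). Of the 11 granule markers, 2 had positive and 9 negative log2 fold changes. DESeq2 called 0 of them higher and 1 lower (Gabra6, adjusted p = 0.0243), where it called 3.00% and 2.32% of all genes. Of 12 oligodendrocyte lineage markers 7 passed DESeq2 as lower in the mutants (summed level 1103 to 2045 CPM in wild type, 883 to 953 in the mutants), and of 10 skeletal muscle markers 9 passed as higher (7.59 to 26.7 against 68.0 to 348 CPM). In bulk tumours, fewer cells of a type and less RNA per cell cannot be told apart.

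Most of the 49 genes were close to silent, and a handful carried nearly all the signal. On the TPM scale, which corrects for transcript length and so allows levels to be compared between genes, Otx2 stood first at a mean of 101 over the 6 tumours, followed by Uncx at 53.9, Tlx3 at 48.4, Pou4f1 at 38.9 and Otx1 at 17.2. Otx2 and Otx1 are head and midbrain regulators that are also expressed in the granule lineage, and Pou4f1 and Tlx3 are neuron identity factors. Otx2, at 79.7 to 119 TPM over the libraries, lay above every value of Uncx (35.2 to 76.2). Uncx, Tlx3 (25.8 to 68.6) and Pou4f1 (33.3 to 52.1) overlapped one another, as did Otx1 (9.16 to 33.2) and Irx2 (8.25 to 22.2). The next genes were Irx2, Irx1, Dbx1, Nkx2-2 and Irx5, at 14.2, 6.78, 5.93, 5.88 and 3.83 TPM. The 5 most abundant genes in each library made up 86.9% to 88.9% of the summed TPM of all 49 in wild type and 80.6% to 86.8% in the mutants. At least 3 estimated counts were found for 27, 25 and 25 of the 49 genes in wild-type replicates 1 to 3 and for 31, 28 and 34 in mutant replicates 1 to 3. With at least 10 counts the numbers were 20, 19 and 20 against 19, 19 and 21, so the higher number in the mutants was seen at the lower threshold and not at this one.

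**Figure D1:**
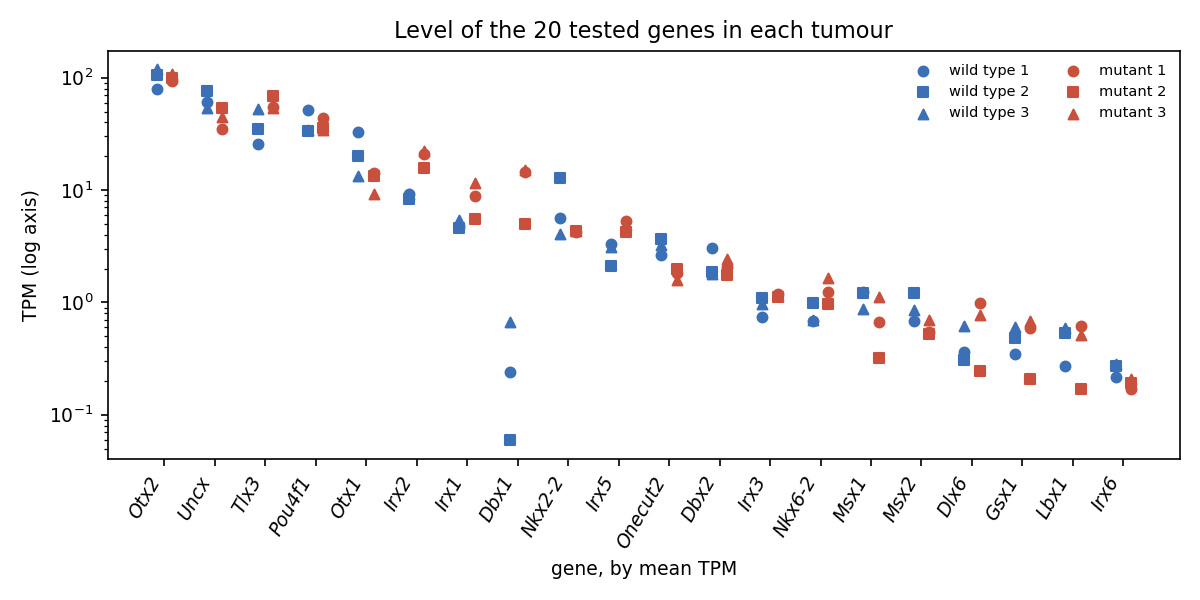
TPM on a log axis (vertical) of the 20 genes with enough counts to test, ordered by mean TPM (horizontal), in 3 wild-type tumours (blue) and 3 Eed mutant tumours (red), 1 point per tumour. Dbx1 is the gene whose groups lie furthest apart on this axis, at 0.0595 to 0.664 TPM in wild type and 5.04 to 15.1 TPM in the mutants.

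Enough counts to test were found for 20 of the 49 genes. edgeR's quasi-likelihood test called 0 of them higher and 0 lower in the mutants at an adjusted p of 0.05, as it did for all 19145 genes tested (0.00% in each direction). At an unadjusted p under 0.05, 6 of the 20 were higher and 3 lower, that is 30% and 15%, against 9.29% and 8.78% of all genes tested. DESeq2, run as another test, called 4 members higher (Dbx1, Irx1, Irx2 and Irx5) and 2 lower (Onecut2 and Otx1) of the 17 to which it gave an adjusted p, where it called 3.00% of all genes higher and 2.32% lower. Every mutant tumour lay above every wild-type tumour for 7 of the 20 genes (35%) and below for 2 (10%), against 13.1% and 11.9% of all genes tested. The filter can favour genes high in 1 group: Dbx1 reached its level of 0.38 CPM in 1 wild-type library and in every mutant, so these counts describe the tested genes and not all 49. The 20 log2 fold changes, mutant minus wild type, were positive for 9 and negative for 11, with a median of -0.04 beside -0.01 for all genes tested. The sign of that median turned under several alternatives, to 0.33 with no filter on low counts and to as much as 0.16 with 1 library left out, so the list as a whole had no set direction. Differences below are called higher or lower by DESeq2 where that test passed, and none of them passed edgeR.

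**Figure D2:**
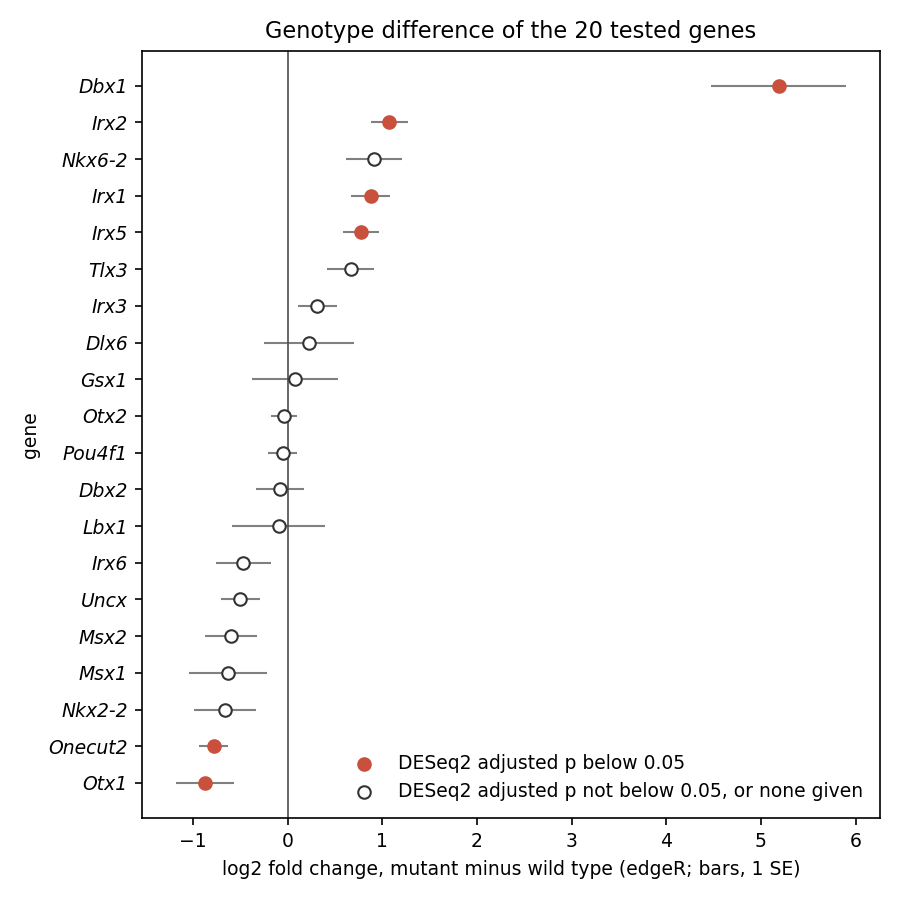
edgeR log2 fold change (horizontal, mutant minus wild type, bars 1 SE) of the 20 tested genes (vertical), filled where the DESeq2 adjusted p was below 0.05. Dbx1 stands alone at 5.19, Irx2, Irx1 and Irx5 lie between 0.78 and 1.07, and Otx1 and Onecut2 lie at the lower end at -0.87 and -0.78.

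The bases upstream of 4 of these genes are shown because Dbx1 and Irx2 had the lowest DESeq2 adjusted p among the genes that were higher in the mutants, while Tlx3 and Pou4f1 were abundant in both groups and did not pass. Each run covers 230 bases, from 250 to 21 bases before the RefSeq start, on the coding strand, 5′ to 3′, from GRCm38.p6, and none of it lies in a GENCODE M21 exon. The windows are chr7:49636856-49637085 (minus strand), chr13:72628570-72628799 (plus), chr11:33203609-33203838 (minus) and chr14:104468020-104468249 (minus). Capitals mark CG, the dinucleotide that makes up CpG islands, where PRC2 is known to be recruited.
Dbx1: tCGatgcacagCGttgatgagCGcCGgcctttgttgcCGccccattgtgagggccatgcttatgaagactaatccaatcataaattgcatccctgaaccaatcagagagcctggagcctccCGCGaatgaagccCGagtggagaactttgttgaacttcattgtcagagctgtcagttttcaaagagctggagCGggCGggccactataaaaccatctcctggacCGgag
Irx2: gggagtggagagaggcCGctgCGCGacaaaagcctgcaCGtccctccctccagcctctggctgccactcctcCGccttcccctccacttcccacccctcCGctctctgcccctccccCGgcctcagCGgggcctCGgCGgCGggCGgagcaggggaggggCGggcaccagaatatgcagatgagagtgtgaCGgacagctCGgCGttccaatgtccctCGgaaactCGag
Tlx3: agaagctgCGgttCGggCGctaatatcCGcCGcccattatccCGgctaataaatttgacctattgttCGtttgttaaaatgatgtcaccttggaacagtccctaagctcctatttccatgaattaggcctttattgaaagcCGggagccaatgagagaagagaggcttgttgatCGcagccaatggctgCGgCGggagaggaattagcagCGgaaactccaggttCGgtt
Pou4f1: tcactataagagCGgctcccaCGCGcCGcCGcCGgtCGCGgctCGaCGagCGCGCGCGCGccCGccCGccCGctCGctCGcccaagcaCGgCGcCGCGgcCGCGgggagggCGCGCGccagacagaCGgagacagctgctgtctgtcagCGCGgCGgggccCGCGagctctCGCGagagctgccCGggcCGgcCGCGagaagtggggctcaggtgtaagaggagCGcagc
The windows hold 11, 18, 13 and 42 CG in that order, so Dbx1 has the fewest of the 4. Dbx2 and Nkx2-2, which were tested and not called by DESeq2, have fewer still, at 9 and 7 CG. RefSeq starts were matched for 36 of the 49 genes, taking the start richest in CG where a gene has several. Irx1, Irx5, Onecut2 and Otx1, all called by DESeq2, were not matched. Of these 36 windows 29 (80.6%) held at least 10 CG, against 37.2% of the 27025 genes with a window, and the medians were 15.5 and 5 CG. At least 10 CG were found for 11 of the 13 matched genes with enough counts to test (84.6%) and for 18 of the 23 matched genes below that level (78.3%), so CG-rich starts were frequent among expressed and near-silent members alike.

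Dbx1 had the largest log2 fold change of the 20 tested genes. Dbx1 is a homeobox repressor of the middle of the dorsoventral axis, where its progenitors give rise to commissural interneurons (V0). The gene (ENSMUSG00000030507.6, GRCm38 chromosome 7, 49631499 to 49636849, minus strand) reached 0.302, 0.0757 and 0.836 CPM in the wild-type tumours (replicates 1, 2 and 3, the order used throughout) but 18.8, 6.53 and 19.4 CPM in the Eed mutants, which rests on 8, 2 and 22 against 490, 170 and 513 estimated counts. The groups did not overlap, with mutant replicate 2 the lowest of the mutants and wild-type replicate 3 the highest of the wild types. The means were 0.405 ± 0.391 and 14.9 ± 7.26 CPM (SD, n = 3), a log2 fold change of 5.19 (SE 0.713). DESeq2 called Dbx1 higher (adjusted p = 7.01e-06) and did so in 10 of 10 alternatives, with a highest adjusted p of 0.00473. These left out each of the 6 libraries in turn, added a replicate block, sex or a code from the file names (its meaning is not given) as a term, or dropped independent filtering. In edgeR the adjusted p was 0.104, and 0.016 to 0.413 over its alternatives. The skeletal muscle markers, summed, were also lowest in mutant replicate 2 among the mutants and highest in wild-type replicate 3 among the wild types, with sums of 7.59, 8.48 and 26.7 CPM in the wild-type tumours and 131, 68.0 and 348 CPM in the mutants, and their part in the Dbx1 difference was not tested.

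Its paralogue Dbx2, which is expressed in a wider set of progenitors around the same domain, did not move with it. Dbx2 measured 6.15, 3.79 and 3.61 CPM in wild type and 4.30, 3.61 and 4.91 CPM in the mutants, so the groups overlapped (log2 fold change -0.08, SE 0.249, DESeq2 adjusted p = 0.932). In wild type Dbx2 was the more abundant of the pair on the TPM scale, at 1.80 to 3.07 against 0.0595 to 0.664 for Dbx1, while in the mutants Dbx1 was the more abundant, at 5.04 to 15.1 against 1.75 to 2.41 TPM. Evx1 and Evx2, which mark neurons born from Dbx1 progenitors, stayed near 0. Evx1 had no counts in any library, and Evx2 had counts of 2, 0 and 1 in the wild-type tumours, with 2, 6 and 3 in the Eed mutants. The coding genes on either side of Dbx1 differed far less. Nav2, 21.4 kb away, was at 153 ± 26.4 and 123 ± 18.9 CPM (log2 fold change -0.32), and Htatip2, 122 kb away, at 0.896 ± 0.0758 and 1.34 ± 0.294 CPM (log2 fold change 0.57). Neither passed DESeq2 (adjusted p = 0.298 and 0.448), although the Htatip2 groups did not overlap.

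**Figure D3:**
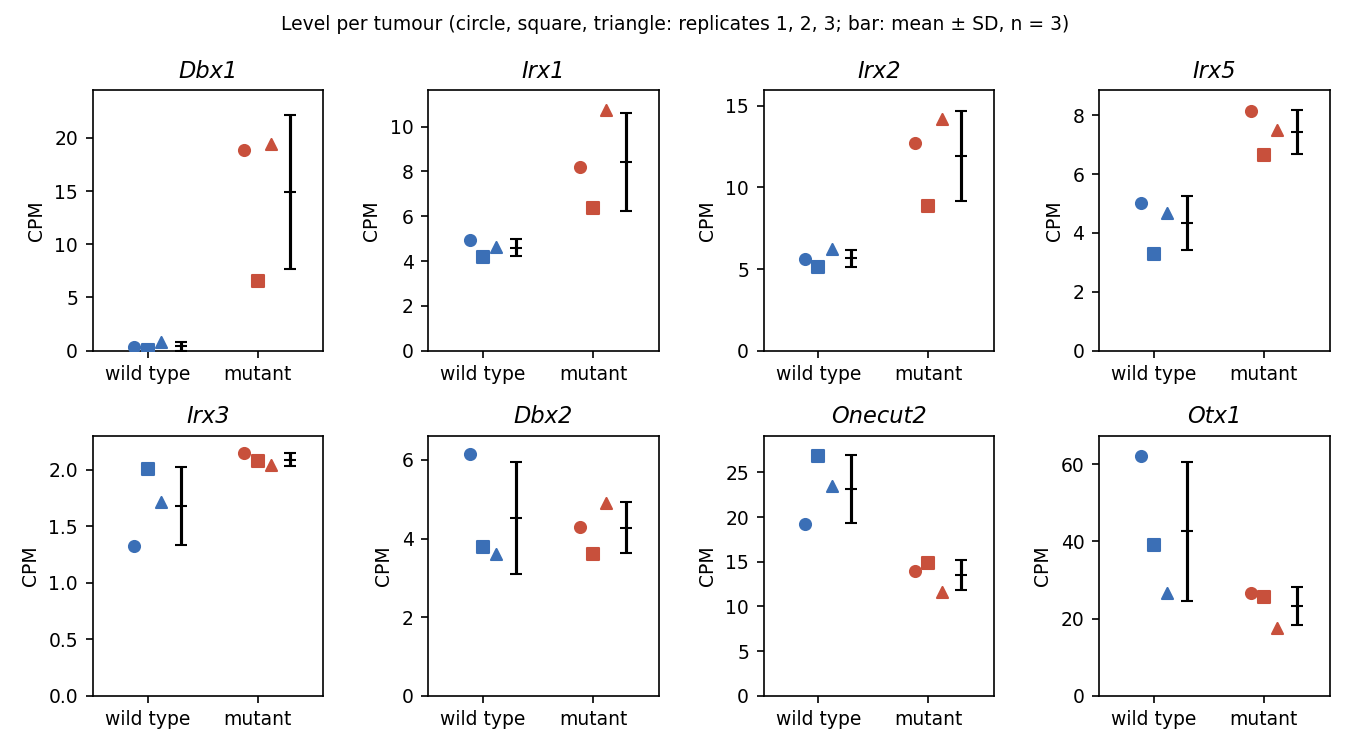
CPM (vertical, from 0) in each of 3 wild-type (blue) and 3 mutant (red) tumours for the 6 genes called by DESeq2 and for Dbx2 and Irx3, which were not called. Black bars are mean ± SD (n = 3). Dbx1, Irx1, Irx2 and Irx5 are lowest in replicate 2 (squares) among the mutants, and Otx1 in wild-type replicate 3 nearly touches mutant replicate 1, at 26.7 and 26.6 CPM.

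The Iroquois genes act in groups of 3 that share long-range enhancers, Irx1, Irx2 and Irx4 on chromosome 13 and Irx3, Irx5 and Irx6 on chromosome 8, and take part in neural and limb patterning. DESeq2 called 3 of the 6 higher in the mutants, Irx1, Irx2 and Irx5, and none lower, where it called 3.00% and 2.32% of all genes. It gave Irx4 and Irx6 no adjusted p. Irx2 (chromosome 13, 72628820 to 72634198) measured 5.62, 5.15 and 6.20 CPM in wild type and 12.7, 8.84 and 14.2 CPM in the mutants. Every mutant lay above every wild type (means 5.66 ± 0.525 and 11.9 ± 2.78 CPM, a log2 fold change of 1.07 with SE 0.198, DESeq2 adjusted p = 0.000126, edgeR adjusted p = 0.13), and the DESeq2 call held in 10 of 10 alternatives. Irx1, 665 kb from Irx2, measured 4.95, 4.20 and 4.64 CPM in wild type and 8.22, 6.38 and 10.7 CPM in the mutants. The groups again did not overlap, and both genes were lowest in mutant replicate 2 among the mutants (Irx1 log2 fold change 0.88, SE 0.209, DESeq2 adjusted p = 0.00839, edgeR adjusted p = 0.151). Irx4, 626 kb beyond Irx2, was silent: it had 5 counts in wild-type replicate 3, 1 in mutant replicate 3 and 0 in the remaining libraries. Adamts16, the coding gene on the other side of Irx1, averaged 2.39 ± 0.559 and 1.59 ± 0.592 CPM without passing (log2 fold change -0.59, DESeq2 adjusted p = 0.409).

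On chromosome 8 the picture was less even. Irx5 measured 5.02, 3.29 and 4.68 CPM in wild type and 8.14, 6.65 and 7.49 CPM in the mutants. These groups did not overlap (means 4.33 ± 0.914 and 7.42 ± 0.749 CPM, a log2 fold change of 0.78 with SE 0.193, DESeq2 adjusted p = 0.014, edgeR adjusted p = 0.154). Irx3, 556 kb away, was at 1.32, 2.01 and 1.71 CPM against 2.15, 2.07 and 2.04 CPM. The lowest mutant lay just above the highest wild type, and the gene did not pass (log2 fold change 0.31, SE 0.205, DESeq2 adjusted p = 0.638). Irx6, 298 kb beyond Irx5, was low in all tumours, at 0.453 to 0.608 CPM in wild type and 0.307 to 0.454 CPM in the mutants (log2 fold change -0.47, SE 0.291, edgeR adjusted p = 0.444). As for Dbx1, the summed skeletal muscle markers were lowest in mutant replicate 2 among the mutants. Among the wild types these markers were highest in replicate 3, as was Irx2, but Irx1 and Irx5 were highest in replicate 1, where the markers were lowest. Irx5 was also lower in mutant replicate 3 than in mutant replicate 1, unlike the markers. The part of the markers in the Iroquois differences was not tested. The calls of Irx1 and Irx5 were lost when some single libraries were left out. Without wild-type replicate 2, mutant replicate 1 or mutant replicate 3 the DESeq2 adjusted p was 0.0691, 0.131 and 0.141 for Irx1 and 0.0795, 0.291 and 0.143 for Irx5, and Irx5 also missed with the file-name code (0.0573) or sex (0.123) as a term.

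Among the other dorsoventral progenitor genes, none passed DESeq2. Nkx2-2, which defines the ventral p3 domain and is also expressed in oligodendrocyte precursors, measured 6.19, 11.4 and 4.56 CPM in wild type and 4.38, 4.49 and 5.14 CPM in the mutants. The groups overlapped, and the spread in wild type came from replicate 2 (log2 fold change -0.66, SE 0.326, DESeq2 adjusted p = 0.259). The summed oligodendrocyte markers were likewise highest in wild-type replicate 2, at 2045 CPM beside 1103 and 1443 in the other wild-type libraries and 883, 953 and 929 in the mutants, and their part in the Nkx2-2 values was not tested. Without wild-type replicate 3 Nkx2-2 passed DESeq2 as lower (log2 fold change -0.91, adjusted p = 0.0483, with 0.0483 to 0.859 over the alternatives).

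Nkx6-2, a ventral progenitor and myelination factor, was at 0.642, 0.833 and 0.646 CPM in wild type and 1.19, 0.999 and 1.81 CPM in the mutants. The groups did not overlap in CPM but did in TPM, at 0.688 to 0.991 and 0.966 to 1.64, and the gene did not pass (log2 fold change 0.91, SE 0.295, DESeq2 adjusted p = 0.219). Its protein-coding transcript had estimated counts of 8.20, 19 and 8.18 in the wild-type tumours, with 13.6, 8.45 and 8.69 in the Eed mutants. A longer transcript annotated for nonsense-mediated decay had 8.98, 3.06 and 9.01 against 17.7, 17.8 and 39.1, so by these estimates the gene's excess in the mutants lay in that transcript. The error of splitting so few counts between the transcripts was not tested. The locus overlaps Inpp5a on the opposite strand (1132 to 2024 counts per library), and since the strand setting is not known here, reads of the overlap cannot be told apart. Msx1 and Msx2, BMP-responsive repressors of the dorsal midline, were low in every tumour. Msx1 measured 1.43, 1.44 and 1.03 CPM in the wild-type tumours against 0.806, 0.384 and 1.32 CPM, and Msx2 measured 0.906, 1.59 and 1.14 CPM against 0.768, 0.730 and 0.907 CPM. Neither passed (log2 fold changes -0.63 and -0.59, DESeq2 adjusted p = 0.547 and 0.48), and their groups overlapped. Gsx1, a progenitor gene of the ventral forebrain and dorsal spinal cord, was at 0.230 to 0.756 CPM with no difference beyond its spread (log2 fold change 0.08, SE 0.454, edgeR adjusted p = 0.944), and Nkx6-1, Msx3 and Gsx2 had at most 8 counts in any library.

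Of the 16 genes that fix neuron classes, 5 had enough counts to test and Onecut2 was the only one of them that passed DESeq2. Onecut2, a CUT-homeobox factor of early-born neurons (chromosome 18, 64340020 to 64400987), measured 19.2, 26.8 and 23.5 CPM in wild type and 14.0, 14.8 and 11.6 CPM in the mutants. Every mutant lay below every wild type (means 23.2 ± 3.80 and 13.5 ± 1.68 CPM, a log2 fold change of -0.78 with SE 0.153, DESeq2 adjusted p = 0.000781, edgeR adjusted p = 0.134), and the DESeq2 call held in 10 of 10 alternatives. The nearest coding genes were St8sia3, a neuronal sialyltransferase 60.4 kb away, and Fech, 51.9 kb away on the other side. St8sia3 was also lower, at 111 ± 5.94 against 80.1 ± 2.43 CPM (log2 fold change -0.46, DESeq2 adjusted p = 3.54e-05), while Fech was at 32.6 ± 2.04 and 31.7 ± 0.240 CPM (log2 fold change -0.04, DESeq2 adjusted p = 0.902). The inhibitory neuron markers, which cerebellar interneurons and Purkinje cells express, summed to 197, 374 and 273 CPM in wild type and 178, 153 and 198 CPM in the mutants, and 2 of the 8 testable markers, Gad1 among them, passed DESeq2 as lower. Onecut2 and these markers were both highest in wild-type replicate 2. Among the mutants Onecut2 was highest in replicate 2, where the summed markers were lowest, and lowest in replicate 3, where the sum was highest. Single markers did not all share that order. Calb1 (77.2, 53.9 and 81.0 CPM) and Gad1 (31.8, 27.4 and 32.3 CPM) were lowest in mutant replicate 2. Gad2 (9.56, 12.3 and 11.1 CPM) was highest there, and Pvalb (37.0, 37.3 and 46.4 CPM) was lowest in mutant replicate 1. The part of the markers in the Onecut2 difference was not tested. The paralogue Onecut1 was too low to test, with counts of 16, 3 and 4 in the wild-type tumours against 5, 10 and 3.

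Tlx3, a selector of glutamatergic over GABAergic fate in dorsal neurons, was at 24.8, 34.8 and 50.9 CPM in wild type and 53.7, 68.8 and 53.2 CPM in the mutants. The groups did not overlap, but wild-type replicate 3 lay just below the lowest mutant (log2 fold change 0.67, SE 0.249, DESeq2 adjusted p = 0.0827). Without that library Tlx3 passed DESeq2 as higher (log2 fold change 0.98, adjusted p = 0.000158, with 0.000158 to 0.564 over the alternatives). Uncx, a homeobox factor of several brain nuclei and the somites, was at 85.4, 113 and 73.6 CPM in wild type and 50.3, 78.4 and 64.3 CPM in the mutants. Its groups overlapped and it did not pass (log2 fold change -0.50, SE 0.202, DESeq2 adjusted p = 0.15). Pou4f1, a POU factor of sensory and some central neurons, was at 52.7, 38.7 and 39.5 CPM in the wild-type tumours against 49.3, 39.3 and 37.9 CPM in the Eed mutants, with overlapping groups (log2 fold change -0.05, SE 0.153, DESeq2 adjusted p = 0.931). Lbx1, which specifies dorsal inhibitory neurons and migrating muscle precursors, had counts of 11, 22 and 24 in the wild-type tumours, with 25, 7 and 21 in the Eed mutants (log2 fold change -0.09, SE 0.494).

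The head and midbrain gene Otx1 (chromosome 11, 21994764 to 22002897) measured 62.1, 39.1 and 26.7 CPM in wild type and 26.6, 25.7 and 17.6 CPM in the mutants. The groups did not overlap, though wild-type replicate 3 and mutant replicate 1 were nearly equal and the wild types spread over more than the difference between the means (42.6 ± 18 against 23.3 ± 4.97 CPM, log2 fold change -0.87, SE 0.308). DESeq2 called it lower (adjusted p = 0.0472; edgeR adjusted p = 0.223), and that call held in 3 of 10 alternatives. It was lost on leaving out wild-type replicate 1 (0.249) or 2 (0.395), or any of mutant replicates 1 to 3 (0.193, 0.1 and 0.329), with sex as a term (0.27) and with no independent filtering (0.0898). The shares of its main protein-coding transcript were 66.0% to 74.9% in wild type and 73.0% to 76.4% in the mutants, and a transcript annotated with a retained intron took nearly all the rest. Otx2, its paralogue and the most abundant of the 49 genes, was at 71.4, 90.5 and 108 CPM in wild type and 83.5, 85.8 and 93.4 CPM in the mutants, with no difference beyond the spread (log2 fold change -0.04, SE 0.142, DESeq2 adjusted p = 0.948). Marker RNA of choroid plexus, which expresses Otx2, was uneven: 8 markers summed to 66.2 to 194 CPM in wild type and 31.4 to 221 CPM in the mutants. Ttr was the most abundant of the 8 in every library, at 38.7 to 128 CPM in wild type and 13.0 to 172 CPM in the mutants. Among the wild types Otx2 was highest in replicate 3, where these markers were lowest, and among the mutants it was highest in replicate 3, where they were highest. Their part in the Otx2 values was not tested. The remaining region genes, Nkx2-1, Emx1, Emx2, Gbx1, Gbx2, Six3, Six6, Vax1 and Vax2, which mark forebrain, eye and the midbrain-hindbrain border, had at most 12.5 counts in any library.

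The Dlx genes, which lie in 3 convergent pairs and direct forebrain interneuron and craniofacial development, were low in both groups. The 6 genes summed to 0.944 to 1.18 CPM in wild type and 1.04 to 1.93 CPM in the mutants. Dlx6 alone had enough counts to test, at 0.379 to 0.760 and 0.307 to 0.983 CPM (log2 fold change 0.23, SE 0.476, edgeR adjusted p = 0.83).

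Counts are given for the 29 genes too low to test. Evx1, Tlx2 and Hmx3 had no counts in any library, 13 others had fewer than 10 counts over all 6 libraries, and 13 had at least 10. The 29 genes together had summed counts of 55.1, 45.3 and 37.2 in the wild-type tumours, with 71.0, 64.7 and 91.5 in the Eed mutants. Each mutant lay above each wild type, with mutant replicate 2 and wild-type replicate 1 the closest. The same sum was not taken for other low genes of the series, so nothing about the members is read from it. Of the 13 genes with at least 10 counts, 3 had every mutant above every wild type (Pou4f2, Gbx1 and Vax1) and 0 had the reverse, against 4.31% and 3.75% of the 6407 genes of the series in the same range. Pou4f2 and Vax1 reached 10 counts only through the mutants, where they were high, so nothing about the members is read from this count. Pou4f2, a factor of retinal ganglion cells, was at 0 in every wild-type tumour and had counts of 4, 2 and 7 in the Eed mutants. With each wild-type library set to a floor of 3 counts, the ratio of summed counts was 1.44, without a counting interval. Mutant replicate 2 was itself under that floor. Gbx1, a hindbrain and spinal cord gene, had counts of 2, 2 and 1 in the wild-type tumours, with 5, 4 and 3 in the Eed mutants, a ratio of 2.39 (95% counting interval 0.784 to 8.66). Vax1, a factor of the optic stalk and ventral forebrain, had 0, 1 and 0 against 2, 2 and 5, a ratio of 8.97 (1.24 to 393). Vax2, its paralogue in the ventral retina, had counts of 5.29, 0 and 2.18 in the wild-type tumours, with 9.70, 4.10 and 12.5 in the Eed mutants, a ratio of 3.70 (1.56 to 10.1), with overlapping groups. Gbx2, which sets the hindbrain side of the midbrain-hindbrain border, had 1, 0 and 1 against 6.97, 0 and 4 counts (ratio 5.48, 1.20 to 50.9). These intervals are exact and cover counting error only, and they do not hold the spread between tumours. Mnx1, a motor neuron factor, Emx1, a cortical factor, and Phox2a, a factor of visceral neurons, had at most 2 counts in any library.

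**Figure D4:**
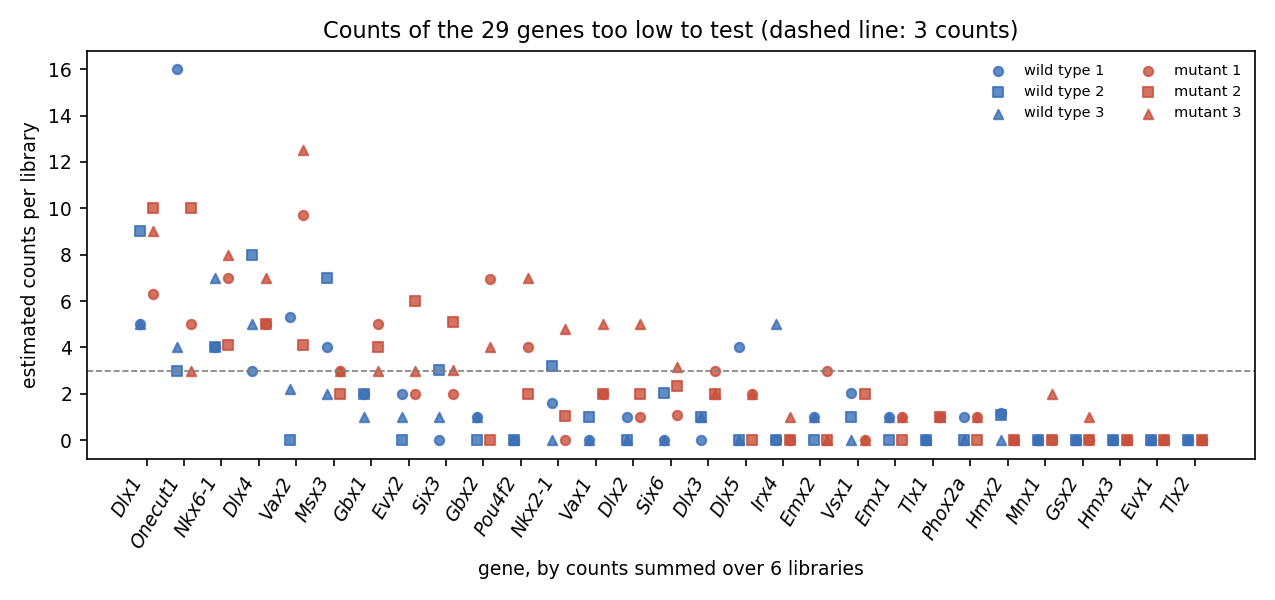
Estimated counts per library (vertical) for the 29 genes too low to test (horizontal, by summed counts), in wild-type (blue) and mutant (red) tumours. The dashed line marks 3 counts. Onecut1 in wild-type replicate 1 is the highest point at 16, and Evx1, Tlx2 and Hmx3 are at 0 throughout.

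Other regulators of the same patterning programme were taken from a list of 45 genes, of which 25 had enough counts to test. edgeR called 0 of them higher and 0 lower. At an unadjusted p under 0.05, 5 were higher (20%) and 5 lower (20%), against 9.29% and 8.78% of all genes tested. DESeq2 called 3 higher (Pax3, Isl1 and En1) and 1 lower (Lhx1), where it called 3.00% and 2.32% of all genes. Every mutant lay above every wild type for 5 (20%) and below for 4 (16%), against 13.1% and 11.9% of all genes tested. Their median log2 fold change was -0.18. Pax3, a gene of the dorsal neural tube and of muscle precursors, had the largest difference of these 4, with means of 2.50 ± 0.204 and 11.0 ± 3.81 CPM (a log2 fold change of 2.13, DESeq2 adjusted p = 1.03e-09). Its values in mutant replicates 1 to 3 were 12.9, 6.57 and 13.4 CPM, the same order of libraries as for Dbx1, Irx1, Irx2 and the summed skeletal muscle markers. Among the wild types Pax3 was lowest in replicate 1 (2.27 CPM), as were the summed muscle markers, and Dbx1 was lowest in replicate 2 (0.0757 CPM). The part of the muscle markers in the Pax3 difference was not tested. Isl1, a motor neuron and sensory neuron factor, was at 10.1 ± 2.57 and 22.4 ± 7.33 CPM (a log2 fold change of 1.15, DESeq2 adjusted p = 0.00239), and En1, a midbrain-hindbrain factor, at 3.61 ± 1.68 and 7.82 ± 2.17 CPM (a log2 fold change of 1.11, DESeq2 adjusted p = 0.0371). Lhx1, a LIM homeodomain factor of interneurons and Purkinje cells, went the other way, with means of 188 ± 17.4 and 130 ± 24.7 CPM (a log2 fold change of -0.53, DESeq2 adjusted p = 0.0215).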

How the data were processed

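RNA-seq of 3 wild-type and 3 Eed mutant medulloblastomas was used. Per transcript, the authors deposited kallisto's estimated counts and TPM, with effective lengths in bases (another deposited measure, used only for a check), per the file headers, and the submitters' processing notes name kallisto 0.43.1, GRCm38 and mm10. Read selection, strand and the GENCODE release are not given in the sources used here. Estimated counts and TPM were summed per gene, counts were rounded to whole numbers, and coordinates came from GENCODE M21 (GRCm38). Genotypes were compared with edgeR 4.0.16 (TMM, default expression filter, quasi-likelihood test, Benjamini-Hochberg over 19145 genes) in R 4.3.3. CPM were scaled by TMM factors. SEs were taken as the fold change over the square root of F. Alternatives were RLE factors, library size only, DESeq2 1.42.0, limma-voom and limma-trend 3.58.1 on log2(TPM + 1) and log2(TPM + 0.1), no filter, a minimum of 1 CPM in 3 samples, a replicate block, the code in the file names as a term, and leaving out each library with the same genes tested. Sex as a term and overlap in TPM were added after seeing the data. The fits were tested on simulated data. Ratios of low counts carry exact 95% binomial intervals, for counting error only. Depth was nearly equal, so 3 counts correspond to 0.113 to 0.115 CPM. Values per sample are given for genes called by either test, genes at 1 CPM or more in a group, and genes under the filter with at least 10 counts and groups that do not overlap. Other genes named were chosen after their values were seen. The members and lists were chosen with earlier results of these data known.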

Additional observations from a re-analysis of the deposited data

How the results depend on the processing

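In edgeR, 0 members were called higher or lower under any alternative except the replicate block, which called 2 higher (Dbx1 and Irx2). Over all genes edgeR called 0 higher and 0 lower, 189 and 84 with the replicate block, 3 higher with no filter on low counts, and 0 to 8 higher and 0 to 3 lower with 1 library left out. limma-voom and limma-trend on log2(TPM + 0.1) called 1 gene higher each, and DESeq2 called 524 and 405, among them 4 members higher and 2 lower. The labels share replicate numbers between groups, but deviations from the group means correlated at 0.227, 0.0624 and -0.135 for replicates 1 to 3, so the numbers were not taken to pair the tumours. Under the block DESeq2 also called Tlx3 higher (adjusted p = 0.00954) and Uncx lower (0.0087). With 1 library left out DESeq2 called 2 to 5 members higher and 1 to 3 lower, and it called 1 lower with sex as a term or no independent filtering. The median log2 fold change of the tested members was -0.04, and it turned to 0.33 with no filter, which adds near-silent genes, 0.0261 with the file-name code, 0.0018 with sex, and -0.21 to 0.16 with 1 library left out. Non-overlapping members numbered 7 higher and 2 lower, 12 higher with no filter, 4 lower with library size only, and 7 to 8 higher and 2 to 6 lower with 1 library left out. The shares over all genes, 13.1% higher and 11.9% lower, were taken for the main setting only. Smaller groups separate more easily and dropping the filter adds genes, so nothing is read from the other numbers. The median number of members detected in the mutants was 31 at 3 counts and 19 at 10.

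Among single members, signs reversed for 6 with small differences, and the cause was not tested. For Dbx2 the log2 fold change was 0.23 with the file-name code in both edgeR and DESeq2, 0.0561 (edgeR) and 0.0566 (DESeq2) with sex, and -0.22 to 0.21 with 1 library left out, where DESeq2 gave 0.0279 without mutant replicate 2. For Pou4f1 it was 0.0849 with the file-name code in both tools, and -0.18 to 0.11 (edgeR) and -0.17 to 0.11 (DESeq2) with 1 library left out, where DESeq2 gave 0.02 without mutant replicate 3. For Gsx1 it was -0.0493 with limma-voom, -0.0449 on log2(TPM + 0.1), -0.0327 with the file-name code, and -0.23 to 0.44 with 1 library left out. With 1 library left out it ran from -0.43 to 0.29 (edgeR) and -0.44 to 0.28 (DESeq2, 0.0246 without wild-type replicate 2) for Lbx1, from -0.26 to 0.58 for Dlx6 in edgeR, and from -0.18 to 0.11 for Otx2. Depth limits the 29 untested genes, where differences of a few counts were not detectable.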

Other observations

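Several members overlap another gene on the opposite strand, and these partners did not follow a common direction. 4930447C04Rik, a coding gene that overlaps Six6, had counts of 13.1, 17.0 and 25.4 in the wild-type tumours, with 47.0, 53.0 and 74.0 in the Eed mutants (log2 fold change 1.66, SE 0.305, DESeq2 adjusted p = 0.00218, edgeR adjusted p = 0.13), while Six6 itself had at most 3.17 counts in any library. Dlx4os had counts of 12, 19 and 33 in the wild-type tumours, with 10, 8 and 8 in the Eed mutants (log2 fold change -1.28, SE 0.429, edgeR adjusted p = 0.209), beside 3 to 8 counts of Dlx4 in each library. Dlx1as was more abundant than Dlx1 in every library on the TPM scale, at 5.89 to 8.20 against 0.0946 to 0.225, and did not differ beyond its spread (log2 fold change -0.06, SE 0.20). Dlx6os1, a noncoding RNA of the Dlx5 and Dlx6 pair, had counts of 1, 2.49 and 3.48 in the wild-type tumours, with 8, 4.68 and 9 in the Eed mutants. Six3os1 had 3.87, 6.81 and 2.44 against 14.1, 6.42 and 9.37 counts, with overlapping groups. Without strand, reads from a gene and its opposite-strand partner cannot be told apart. These genes were chosen after their values were seen.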
